A study of Rattus norvegicus with 20 samples.

Results

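Left ventricle from 10 male rats, 5 given Maresin 1 and 5 given vehicle, was compared gene by gene, and each difference was then read again with 2 numbers per library that follow atrial and kidney transcripts. Maresin 1 (MaR1) is a lipid mediator that cells make from the omega-3 fatty acid docosahexaenoic acid. The 10 heart libraries are part of 20 in the study, the other 10 being kidney cortex of the same animals, and 12237 of the 30560 genes in the file had a mean of at least 1 FPKM over the 10 hearts and were tested. FPKM, fragments per kilobase of gene length and per unit of library size, is a level per unit of gene length. All animals carried the genotype listed as WT, were described as hypertensive, received a blood pressure telemeter at 8 weeks of age and ate a diet with 4% NaCl for 3 weeks. During those weeks a pump under the skin delivered MaR1 at up to 1.3 µg/kg/day (animals RB035 to RB039) or vehicle (RB030 to RB034, listed as control). Pump, diet and telemeter were common to both groups, and the samples hold no group on normal salt. Each library is 1 animal, and neither the strain nor the hour of tissue collection is stated in the sources used here.

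MaR1 belongs to the specialised pro-resolving mediators, which limit the influx of leukocytes and favour the clearing of dead cells. The 12-lipoxygenase Alox12 has been described as an enzyme that starts its synthesis. Lgr6, a receptor on the cell surface, and Rora, a nuclear receptor, have been described as sensors of MaR1. The left ventricle adjoins the left atrium, whose muscle uses the atrial light chains Myl7 and Myl4 and sarcolipin (Sln), a small inhibitor of the calcium pump, in place of ventricular proteins such as Myl2. Genes of the kidney tubule, such as the phosphate transporter Slc34a1, are hardly used by heart muscle, so a kidney transcript in a heart library is a number to be read before any difference between the groups.

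Each heart library held 21543513 to 30342034 fragments, and 1 FPKM of a 1 kb gene corresponded to 19.7 to 29.8 fragments. The ventricular light chain Myl2 lay between 1205 and 2276 FPKM in all 10 libraries, and the summed level of 10 ventricular markers was 6864 ± 1384 FPKM (SD, n = 5) with vehicle and 6938 ± 1520 FPKM (SD, n = 5) with MaR1 (exact permutation test, two-sided, p = 0.929). The deposited values are FPKM only, so a higher share of a cell type and more RNA per cell of it cannot be told apart in these bulk samples. MaR1 libraries held fewer fragments than vehicle libraries (exact permutation test, p = 0.0476; 0.267 after adjustment over the 24 measures compared).

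Atrial transcripts divided the 10 hearts into 5 with many and 5 with few, in both groups. Myl7 stood at 0.318, 225, 1.65, 784 and 529 FPKM in the vehicle hearts RB030 to RB034. In the MaR1 hearts RB035 to RB039 it stood at 316, 0.293, 0.163, 151 and 1.05 FPKM. Vehicle hearts RB031, RB033 and RB034 and MaR1 hearts RB035 and RB038 were thus the high ones, with no library between 1.65 and 151 FPKM. The summed level of Myl7, Myl4, Sln and Bmp10, called the atrial score when taken as its log2, was 1275 ± 1422 FPKM with vehicle and 431.5 ± 620.6 FPKM with MaR1 (SD, n = 5 each, exact permutation p = 0.254). Bmp10, a growth factor of right atrial muscle, was at 8.61 FPKM in RB035 and at or below 0.0677 FPKM in the other 9 libraries. Of the 10 atrial markers 8 were tested, and the 1 with p under 0.05 was Kcnj3, described further on, beside 4.6% of all genes tested.

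Kidney transcripts were low in every heart and, on average, higher with MaR1. The summed level of 16 tubule genes, whose log2 is the kidney score, was 12.5, 7.63, 4.97, 10.1 and 9.81 FPKM in the vehicle hearts. In the MaR1 hearts it was 9.56, 23.4, 16.8, 11.2 and 32.2 FPKM, so the groups overlapped and RB036 and RB039 stood highest. Relative to the kidney libraries, the median of these genes was 0.109% ± 0.0610 of the kidney level with vehicle and 0.224% ± 0.119 with MaR1 (SD, n = 5 each). The summed difference had an exact permutation p of 0.0556 (adjusted p = 0.267), where 5 animals against 5 can reach 0.00794 at the smallest. Over the 10 libraries the atrial score correlated at -0.36 with the MaR1 group and the kidney score at 0.65, and the 2 scores at -0.47 with each other (Pearson, n = 10, all from the same libraries). Group and scores are therefore partly the same information, and with the scores in the model the standard error of a gene's difference was 1.25 times as large in the median.

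**Figure D1:**
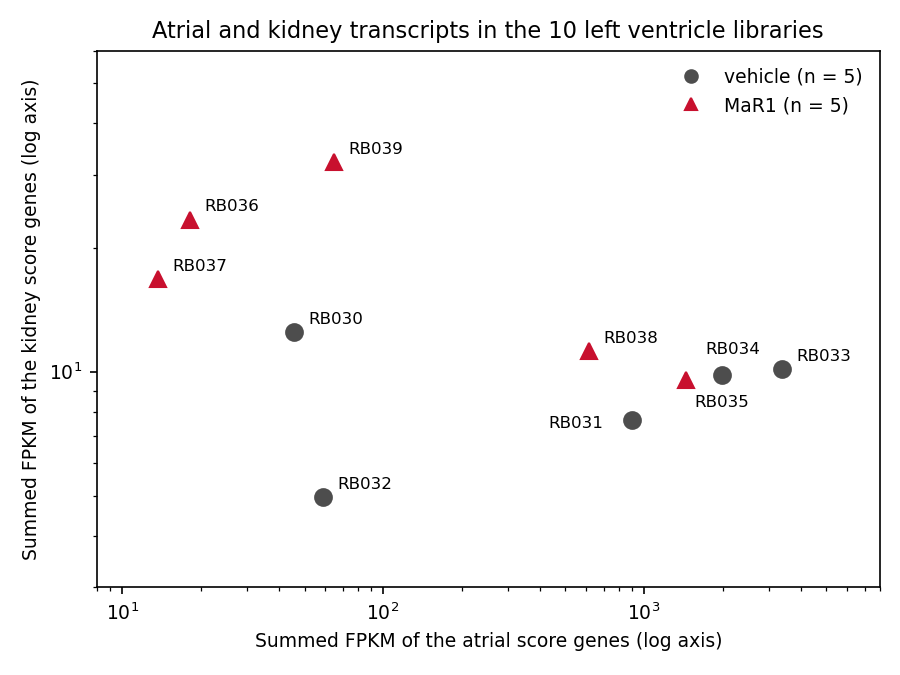
Summed FPKM of the 4 atrial score genes (horizontal, log axis) against that of the 16 kidney score genes (vertical, log axis), 1 point per left ventricle library, grey circles vehicle and red triangles MaR1. RB036, RB037 and RB039 combine low atrial with high kidney sums, and RB035 and RB038 lie among the vehicle libraries with high atrial sums.

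No gene passed an adjusted p of 0.05 in the comparison of MaR1 with vehicle (0 of 12237 genes, 0%; smallest adjusted p = 0.797, limma on log2(FPKM + 0.5), Benjamini-Hochberg). At an unadjusted p under 0.05 there were 563 genes (4.6%), against 612 that the threshold itself gives over 12237 tests. Of these, 376 were higher (3.07%) and 187 lower (1.53%) with MaR1. With both scores in the model 0 genes passed the adjusted threshold (0%; smallest adjusted p = 0.632) and 835 genes (6.82%) had an unadjusted p under 0.05, of which 466 were higher (3.81%) and 369 lower (3.02%). After lowering each heart value by the kidney level of its own library, 0 genes were called (0%; smallest adjusted p = 0.869) and 555 (4.54%) had an unadjusted p under 0.05. Every gene below is therefore a difference without a call after adjustment, with an adjusted p between 0.797 and 1 without the scores.

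The atrial score had a slope past an adjusted p of 0.05 in 46 genes (0.376%), 45 of them rising with it. Sln, Myl7 and Myl4 were among the first, but they are part of the score and so rise with it by construction. Mybphl, an atrial member of the myosin binding proteins that is not part of the score, was also among the first. Mybphl was at 18.5 to 62.4 FPKM in the 3 vehicle hearts with high Myl7 and at or below 0.172 FPKM in the other 2, and at 0 in 3 MaR1 hearts. The kidney score had 0 such genes (0%), with 397 at an unadjusted p under 0.05. Tested genes that were at least 10 times higher in kidney than in heart numbered 217. Of these, 20 had an unadjusted p under 0.05 without the scores, beside 4.6% of all genes tested. Higher with MaR1 were 17 of the 20, beside 3.07% of all genes tested.

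All 563 genes kept their direction when the scores were added, and 203 of them (1.66% of genes tested) also had an unadjusted p under 0.05 there. These 203 are 36.1% of the 563 and 24.3% of the 835, with 134 higher and 69 lower with MaR1. After subtraction 202 of them also held, but it lowered each gene by only 0.0397% (RB032) to 0.398% (RB039) of its kidney level. Of the 203 genes, 6 were at least 10 times higher in kidney than in heart, so for most of them subtraction could change little. A stricter rule asked in addition for p under 0.05 after subtraction and in each of the 10 fits without the scores that leave out 1 animal. It left 124 genes (1.01%), 84 higher and 40 lower, of which 103 carry a gene name. The groups did not overlap at all in 103 genes (0.842%), 71 of them higher with MaR1, and 43 of these were among the 203.

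**Figure D2:**
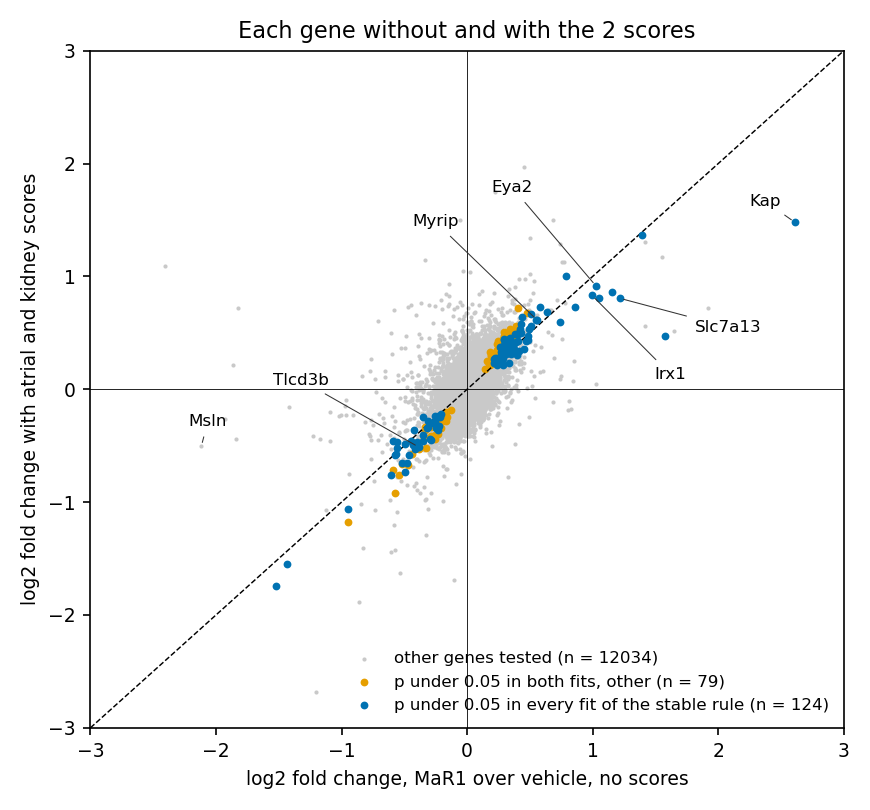
Log2 fold change (MaR1 over vehicle) of each of 12237 genes without scores (horizontal) and with the atrial and kidney scores (vertical); the dashed line marks equal values, orange points are 79 genes with p under 0.05 in both fits, and blue points are the 124 genes of the stricter rule. Kap and Slc7a13 fall below the line, Myrip and Eya2 lie near it, and Msln moves from -2.12 to -0.51.

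The 124 genes were followed over 24 alternatives of the fit with scores that keep the same filter on low values; most of these leave out an animal or change the scale or the model, and the rest change the scores themselves. Of the 124 genes, 123 kept their direction in all 24, and 17 (0.139% of genes tested) had p under 0.05 in all 24. The alternatives refit the same libraries by which the 124 genes were chosen. A kept direction was thus largely given by that choice, and neither count is a second test. With the kidney score taken from the proximal tubule genes Kap, Miox and Slc7a13 only, 28 of the 124 had p under 0.05. Among the 17 are Myrip, Eya2, Bmyc, Pigl, Icoslg, Hdac7 and Rps27a-ps1, which were higher with MaR1, and Tlcd3b, Nudt10, Ehbp1 and Mat2a, which were lower.

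Myrip, which links the motor protein myosin VIIa to Rab27a on secretory granules, had the smallest p among the tested genes that carry a name. Its gene lies on chromosome 8 at 120017524 to 120183833 (plus strand, ENSRNOG00000018797; coordinates as in the deposited table, for which no build is stated in the sources used here). The vehicle hearts read 9.96, 10.7, 8.20, 10.8 and 11.5 FPKM and the MaR1 hearts 15.8, 14.7, 17.2, 16.3 and 12.4 FPKM. All MaR1 libraries were above all vehicle libraries, and RB039 was the lowest of them. The log2 fold change was 0.56 ± 0.11 (SE), and 0.61 ± 0.14 with the scores. Throughout, an error after a log2 fold change is its standard error, and one after a mean FPKM the SD over 5 animals. Fold changes are on the log2(FPKM + 0.5) scale, which understates those of genes with low values. Abcb1b, a drug efflux transporter of the P-glycoprotein family, read 2.21, 2.02, 2.16, 2.15 and 2.52 FPKM with vehicle and 3.68, 3.66, 3.71, 4.28 and 2.58 FPKM with MaR1. The groups did not overlap, with RB039 only just above the highest vehicle heart, and the log2 fold change was 0.58 without and 0.73 with the scores. Abcb1b has a close relative, Abcb1a, and reads shared by both could be split between them.

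Among transcription regulators, Eya2, a phosphatase and co-activator of the sine oculis pathway, read 2.46, 5.09, 1.96, 3.63 and 4.07 FPKM with vehicle and 7.30, 8.55, 8.09, 5.73 and 6.61 FPKM with MaR1, with no overlap (log2 fold change 1.03 ± 0.21; 0.92 ± 0.26 with scores). The Iroquois genes Irx1 and Irx2, 2 homeodomain factor genes on chromosome 1, were both higher at low levels. Irx1 read 0.748, 0.576, 0.575, 0.343 and 0.781 FPKM with vehicle and 1.33, 2.07, 2.90, 1.15 and 1.36 FPKM with MaR1, with no overlap (log2 fold change 1.00; 0.83 with scores). Irx2 read 1.60, 0.909, 2.05, 0.433 and 1.06 FPKM with vehicle and 2.29, 5.33, 4.77, 1.46 and 3.04 FPKM with MaR1, where RB038 lay within the vehicle range (1.15; 0.86 with scores). Irx4, the third gene of that cluster and a factor of ventricular muscle, was at 6.69 to 13.7 FPKM with a log2 difference of 0.01 ± 0.18. Irx2 and Irx4 were picked for naming after their values were seen.

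Smaller but tight differences were seen in Prkd1, Bmyc and Fnip2. Bmyc, a short relative of Myc, read 9.21, 9.12, 9.07, 9.53 and 8.96 FPKM with vehicle and 11.1, 10.7, 10.8, 10.9 and 10.6 FPKM with MaR1 (log2 fold change 0.23 ± 0.05; 0.24 with scores). Prkd1, protein kinase D1, which phosphorylates class IIa histone deacetylases in heart muscle, read 4.41, 4.60, 4.59, 5.74 and 5.26 FPKM against 6.37, 6.80, 6.39, 6.47 and 6.15 FPKM (0.36; 0.35 with scores). Fnip2, a partner of folliculin in nutrient sensing at the lysosome, was at 4.79 to 5.69 FPKM with vehicle and 6.07 to 7.38 FPKM with MaR1 (0.34; 0.38 with scores). In none of these 3 did the groups overlap. Hdac7, a class IIa deacetylase, had a log2 fold change of 0.29 (0.43 ± 0.09 with scores), with RB039 at 11.6 FPKM inside the vehicle range of 10.2 to 11.8 FPKM.

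Icoslg, a ligand that co-stimulates T cells, was 10.8 ± 0.910 FPKM with vehicle and 13.6 ± 1.25 FPKM with MaR1 (SD, n = 5 each; log2 fold change 0.32, 0.44 ± 0.10 with scores). Pigl, an enzyme of the glycosylphosphatidylinositol anchor, was at 0.591 to 1.02 FPKM and 1.11 to 1.62 FPKM (0.51; 0.67 with scores). Pfkfb3, which makes the activator of the glycolytic enzyme phosphofructokinase, was the glycolysis gene on the stricter list, at 6.56 ± 0.548 and 8.00 ± 0.513 FPKM (0.27; 0.33 with scores). The 22 glycolysis genes as a list lay the other way, 18 of them lower with MaR1 and a median log2 fold change of -0.06.

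**Figure D3:**
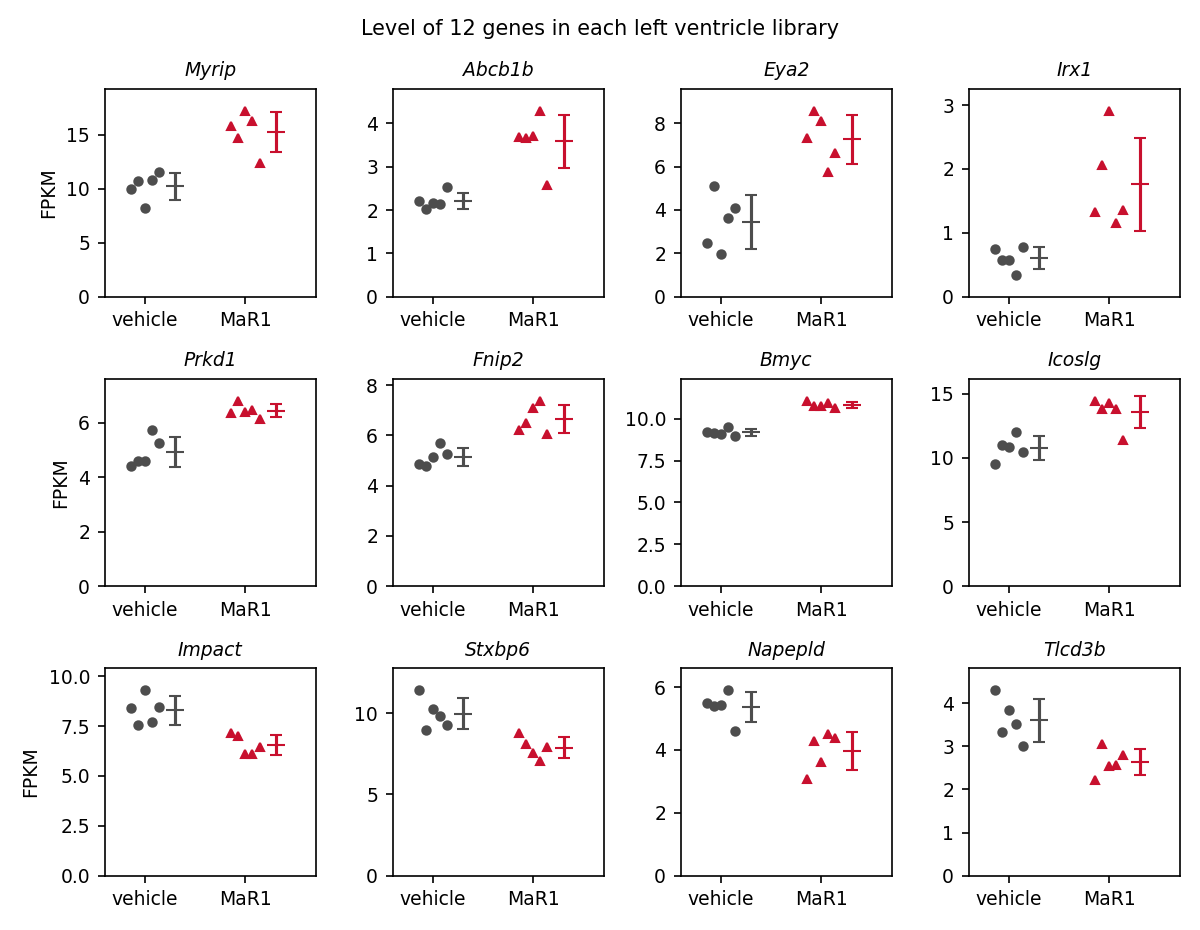
FPKM of 12 genes of the stricter rule in each left ventricle library, grey circles vehicle and red triangles MaR1, with the mean and SD of each group (n = 5) beside the points. The 8 genes in the upper rows are higher and the 4 genes of the lowest row lower with MaR1, and RB039 is the lowest MaR1 library for Myrip, Abcb1b, Prkd1, Fnip2, Bmyc and Icoslg.

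The list of endothelial markers holds genes of the blood vessel lining. Of its 11 tested members 1 is under the stricter rule, beside 1.01% of all genes tested. This is Flt1, a receptor of vascular endothelial growth factor, which read 26.8, 24.9, 26.1, 28.1 and 30.8 FPKM with vehicle and 32.4, 34.6, 41.1, 34.7 and 30.2 FPKM with MaR1, where RB039 alone lay within the vehicle range (log2 fold change 0.33 ± 0.09; 0.33 ± 0.13 with scores). Ptprb, the endothelial phosphatase that acts on the angiopoietin receptor Tek, was 31.0 ± 3.64 and 39.7 ± 3.99 FPKM (0.35; 0.36 with scores). Fgd5, an exchange factor for Cdc42 in endothelium, was 10.5 ± 1.28 and 14.3 ± 1.85 FPKM (0.42; 0.50 with scores). Adgrf5, an adhesion receptor of endothelium, was 55.4 ± 6.88 and 72.9 ± 8.56 FPKM, and Slc9a3r2, a scaffold protein, 97.3 ± 16.5 and 134 ± 12.1 FPKM (0.39 and 0.47). Podxl, a sialomucin of endothelium and podocytes, Rasip1, which acts in vessel lumen formation, and the semaphorins Sema3g and Sema6a lay at 0.33, 0.34, 0.41 and 0.43. The water channel Aqp1 was at 261 to 313 FPKM with vehicle and 320.3 to 364 FPKM with MaR1 (0.26; 0.23 ± 0.10 with scores). Ptprb, Adgrf5, Slc9a3r2, Podxl, Rasip1, Sema3g, Sema6a and Aqp1 were picked for naming after their values were seen.

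Of the 11 tested endothelial markers 9 were higher with MaR1, 2 of them with p under 0.05 (Flt1 and Erg), and the median log2 fold change was 0.11. Over all genes tested 54.2% were higher, 3.07% with p under 0.05, and the median was 0.01. With the scores 10 of 11 were higher, 3 with p under 0.05 (Flt1, Tek and Vwf), and the median was 0.22. For Vwf, which was highest in RB035, the log2 difference was -0.19 ± 0.36 without the scores and -0.43 in the 5 hearts with low Myl7. The summed level of the list was 445 ± 40.7 FPKM with vehicle and 480.0 ± 54.9 FPKM with MaR1 (SD, n = 5 each, exact permutation p = 0.246), and RB039 had 393 FPKM, close to the lowest vehicle heart at 392.7. Over the 84 genes of the stricter rule that were higher, RB039 was the lowest MaR1 library in 43, RB035 in 18 and each other library in 5 to 10. Whether the amount of endothelial RNA has a part in these differences was not tested.

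Of the genes of the stricter rule, 40 were lower with MaR1. Napepld, the phospholipase D that releases anandamide and other N-acylethanolamines from membrane lipid, read 5.50, 5.41, 5.44, 5.90 and 4.59 FPKM with vehicle and 3.09, 4.27, 3.62, 4.51 and 4.39 FPKM with MaR1. The groups did not overlap, and the log2 fold change was -0.40 ± 0.10 (-0.50 ± 0.14 with scores). Tlcd3b, a protein of the ceramide synthase fold, read 4.30, 3.34, 3.85, 3.51 and 3.01 FPKM against 2.23, 3.05, 2.55, 2.56 and 2.80 FPKM, with RB036 just above the lowest vehicle heart (-0.38; -0.51 ± 0.11 with scores). Impact, which restrains the amino acid sensing kinase Gcn2, read 8.43, 7.53, 9.30, 7.68 and 8.47 FPKM against 7.16, 7.02, 6.08, 6.11 and 6.46 FPKM, with no overlap (-0.31; -0.28 with scores). Stxbp6, a regulator of membrane fusion, was at 8.98 to 11.4 and 7.07 to 8.79 FPKM, and Cd300lf, an inhibitory receptor of myeloid cells, at 1.23 to 1.95 and 0.975 to 1.18 FPKM (-0.32 and -0.43). Mat2a, which makes the methyl donor S-adenosylmethionine, was 39.5 ± 3.97 and 33.2 ± 2.28 FPKM (-0.24; -0.34 with scores).

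Kcnj3 encodes Kir3.1, a subunit of the acetylcholine-gated potassium channel that is prominent in atrium and nodes. It read 9.29, 17.7, 14.2, 17.4 and 16.3 FPKM with vehicle and 8.68, 9.50, 8.84, 9.93 and 11.95 FPKM with MaR1. Only RB030 of the vehicle hearts lay within the MaR1 range, and the log2 fold change was -0.56 ± 0.16 without and -0.57 ± 0.20 with the scores. Among the 5 hearts with low Myl7 it was -0.19 and among the 5 with high Myl7 -0.85. Gja1, the main gap junction protein of ventricular muscle (connexin 43), was 54.7 ± 10.01 FPKM with vehicle and 43.1 ± 5.64 FPKM with MaR1 (-0.33 ± 0.13; -0.36 ± 0.15 with scores), and its p without the scores was over 0.05 in at least 1 of the fits that leave out an animal. Xirp1, a protein of the intercalated disc, read 27.7, 28.2, 27.7, 18.6 and 24.5 FPKM against 14.2, 19.6, 16.9, 19.2 and 20.9 FPKM, with RB033 low among the vehicle hearts (-0.47; -0.58 with scores). Fgf12, which modulates sodium channels, and the desmosome gene Dsc2 both lay at -0.35. Xirp1, Fgf12, Dsc2 and Mat2a were chosen after their values were seen.

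The 15 tested ion channel genes of the action potential were lower in 10 without and in 12 with the scores. Their median log2 fold change was -0.03 without and -0.25 with the scores. With the scores 5 of the 15, Gja1, Kcnd2, Hcn2 and Kcnip2 among them, were lower with p under 0.05, beside 3.02% of all genes tested. Sarcomere genes were lower with the scores in 15 of 16 and oxidative phosphorylation genes in 46 of 46. Kcnip2, the partner subunit of the transient outward current, read 302, 256, 303, 188 and 228 FPKM with vehicle and 151, 299, 254, 199 and 332 FPKM with MaR1. The groups overlapped over nearly their whole range, with RB035 and RB033 low, and the log2 difference was -0.08 ± 0.22 without and -0.46 ± 0.15 with the scores. Hcn4, the pacemaker channel of the conduction system, was at 1.31 to 6.10 and 2.55 to 10.6 FPKM (0.74; 1.29 ± 0.51 with scores).

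Proximal tubule genes were higher in MaR1 hearts as a list. All 13 tested members were higher without the scores, 6 with p under 0.05 (among them Kap, Slc7a13, Miox, Fbp1 and Ass1), with a median log2 fold change of 0.54. Over all genes tested 54.2% were higher without the scores, 3.07% with p under 0.05, and with the scores 50.4% and 3.81%. With the scores, which contain 16 tubule genes and so remove part of this by construction, 10 of 13 were higher, 3 had p under 0.05 and the median was 0.13 (0.38 without RB030 and 0.07 without RB035). The summed level of the list was 52.9, 31.0, 26.3, 40.8 and 42.5 FPKM in the vehicle hearts and 48.1, 111, 77.4, 65.0 and 89.8 FPKM in the MaR1 hearts, where RB035 alone lay within the vehicle range (exact permutation p = 0.0159, adjusted p = 0.267). The 2 tested genes of the distal nephron list were both higher without and both lower with the scores, with p over 0.05.

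Kap, an androgen-regulated protein of the proximal tubule, was the gene with the largest fold. It read 4.91, 1.54, 1.13, 2.28 and 4.14 FPKM with vehicle and 3.85, 49.9, 26.7, 19.5 and 16.1 FPKM with MaR1. RB035 was level with the vehicle hearts and the other 4 MaR1 hearts were above all of them (log2 fold change 2.61 ± 0.58; 1.48 ± 0.58 with scores). The mean over the kidney libraries was 3056 ± 1051 FPKM, so these hearts held 0.154% ± 0.177 of the level in their own kidney with vehicle and 0.685% ± 0.468 with MaR1 (SD, n = 5 each, exact permutation p = 0.0556, adjusted p = 0.111 over 12 kidney genes). Slc7a13, an aspartate and glutamate transporter, read 1.26, 0.454, 0.712, 0.405 and 1.27 FPKM against 1.71, 5.35, 2.39, 1.77 and 2.09 FPKM, with no overlap (1.21; 0.81 ± 0.33 with scores). As a share of the level in the same animal's kidney it was 0.412% ± 0.653 and 0.464% ± 0.475 (exact permutation p = 0.770, adjusted p = 0.825). Miox, which breaks down inositol, had a log2 fold change of 1.41 ± 0.37 without and 0.56 ± 0.31 with the scores. For Fbp1, of gluconeogenesis, it was 0.84 ± 0.30 without and 0.07 ± 0.20 with them. Fbp1 is itself part of the kidney score, so its value with the scores is lowered by construction. Umod, made in the thick ascending limb, was 1.04 ± 1.14 and 1.38 ± 1.07 FPKM (log2 difference 0.38 ± 0.50), or 0.167% ± 0.201 and 0.139% ± 0.115 of the kidney level (exact permutation p = 0.825, adjusted p = 0.825). Slc34a1, a phosphate transporter, was 0.947 ± 0.745 and 2.09 ± 1.59 FPKM (log2 difference 0.83 ± 0.41). The source of these transcripts in the hearts was not tested.

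Leaving out RB035, which had high atrial and low kidney sums unlike 3 of the other MaR1 hearts, the fit after subtraction called 4 genes at an adjusted p under 0.05 (limma). Among them were Kap, Hao2 and Cltrn, with adjusted p of 0.0130, 0.0185 and 0.00298, and these 3 are expressed in proximal tubule. Hao2, a peroxisomal oxidase, read 4.85, 1.65, 0.901, 2.21 and 4.16 FPKM with vehicle and 3.64, 14.5, 9.69, 6.18 and 13.98 FPKM with MaR1, and its log2 fold change was 1.65 ± 0.43 without and 0.52 ± 0.26 with the scores. Hao2 and Cltrn were chosen after their values were seen. The 217 tested genes at least 10 times higher in kidney than in heart include Kap, Slc7a13 and Hao2. Over these 217 the median log2 fold change was 0.04 and 136 were higher with MaR1, beside 54.2% of all genes tested. Without the scores 20 of the 217 had an unadjusted p under 0.05, 17 of them higher, beside 4.60% of all genes tested. Of the 217, 6 were among the 203, beside 1.66% of all genes tested.

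Genes of the molecular clock came next by list. The clock is a loop in which Arntl (Bmal1) with Clock or Npas2 drives the Per, Cry, Nr1d and PAR bZip genes. The Per, Cry and Nr1d products in turn hold the drivers back, so that both arms swing over the day in opposite phase. The list called repressors here also holds the driven PAR bZip genes Dbp and Tef, and the list called activators also holds Nfil3. Promoters of 4 members are printed because this loop is known to act through short motifs in them: 250 bases before the transcription start of Ciart and Tef (E-box, the site of Arntl with Clock), Per2 (D-box, the site of Dbp, Tef and Nfil3) and Arntl (the core of the element read by the Nr1d repressors and Rora). Sequence and positions are from RefSeq on the GRCr8 build, 5′ to 3′ on the strand of the gene: Ciart chr2:186112247-186112496 (minus), Tef chr7:115206577-115206826 (plus), Per2 chr9:99496994-99497243 (minus) and Arntl, listed there as Bmal1, chr1:176766078-176766327 (plus). Capitals mark the motif found.
Ciart: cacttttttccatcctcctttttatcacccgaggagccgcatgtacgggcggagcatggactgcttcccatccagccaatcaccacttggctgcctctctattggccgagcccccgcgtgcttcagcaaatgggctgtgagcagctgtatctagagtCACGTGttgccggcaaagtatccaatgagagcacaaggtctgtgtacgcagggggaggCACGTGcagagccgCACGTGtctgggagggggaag
Tef: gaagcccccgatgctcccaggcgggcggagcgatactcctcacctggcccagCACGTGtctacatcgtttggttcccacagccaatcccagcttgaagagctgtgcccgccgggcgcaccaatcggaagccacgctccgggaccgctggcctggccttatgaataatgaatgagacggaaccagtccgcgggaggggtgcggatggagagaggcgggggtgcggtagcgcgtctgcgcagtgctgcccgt
Per2: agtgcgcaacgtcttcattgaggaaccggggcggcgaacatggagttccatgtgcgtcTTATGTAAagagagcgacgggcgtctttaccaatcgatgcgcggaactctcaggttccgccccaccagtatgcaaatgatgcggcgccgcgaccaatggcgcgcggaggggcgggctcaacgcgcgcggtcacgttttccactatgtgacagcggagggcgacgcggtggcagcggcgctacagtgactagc
Arntl: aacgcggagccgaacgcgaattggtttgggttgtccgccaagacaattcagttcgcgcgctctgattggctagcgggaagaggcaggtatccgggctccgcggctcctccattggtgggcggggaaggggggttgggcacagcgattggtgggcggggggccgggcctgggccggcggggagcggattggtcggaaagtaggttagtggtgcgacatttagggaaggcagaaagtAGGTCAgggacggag
The motifs searched on both strands were the E-box CACGTG, the D-box TTATGTAA and AGGTCA. Ciart holds 3 E-boxes, which begin 93, 35 and 21 bases before the start, Tef 1 at 198 bases, Per2 a D-box at 192 bases and Arntl an AGGTCA at 15 bases. Of the 13 repressor genes 11 had an entry, of which 5 held an E-box, 1 the D-box and 1 AGGTCA, while 4 of 5 activator genes had an entry, of which 0, 0 and 1 did. Over all 33469 windows of the same length the shares were 5.593%, 0.8276% and 14.06%. A match shows that the letters occur in the window and says nothing on binding in these hearts.

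Most genes of the repressor list had higher and those of the activator list lower values with MaR1. Of 13 repressor genes 12 were higher without the scores, 5 with p under 0.05 (Per2, Cry1, Cry2, Dbp and Tef), with a median log2 fold change of 0.31. All 4 tested activator genes were lower, 3 with p under 0.05 (Arntl, Clock and Npas2), with a median of -0.44. Over all genes tested 3.07% were higher and 1.53% lower with p under 0.05 in the fit without scores. With the scores the medians were 0.25 and -0.41, and the genes with p under 0.05 were then others, Nr1d1 and Nfil3, so that none of the 17 genes is among the 203. The summed repressor level was 254 ± 47.0 FPKM with vehicle and 314 ± 20.1 FPKM with MaR1 (SD, n = 5 each, exact permutation p = 0.0317) and the summed activator level 14.998 ± 2.54 and 11.2 ± 1.35 FPKM (exact permutation p = 0.0397), both with an adjusted p of 0.267.

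Dbp, a PAR bZip factor with one of the widest daily swings, read 25.5, 63.6, 53.7, 38.2 and 72.8 FPKM with vehicle and 67.8, 89.3, 73.4, 64.1 and 80.8 FPKM with MaR1. RB030 and RB033 were low among the vehicle hearts, and RB034 alone lay within the MaR1 range (log2 fold change 0.64 ± 0.25; 0.70 ± 0.35 with scores). Arntl read 4.80, 2.38, 3.71, 4.56 and 1.39 FPKM against 2.62, 1.58, 1.22, 2.47 and 1.22 FPKM (-0.69 ± 0.29; -0.41 ± 0.40 with scores). The vehicle hearts with the lowest Dbp, RB030 and RB033, had the highest Arntl, and RB034, with the highest Dbp of the vehicle hearts, had the lowest. Npas2 read 3.06, 1.54, 2.17, 3.12 and 1.62 FPKM against 1.87, 0.711, 0.890, 1.68 and 0.723 FPKM (-0.76 ± 0.24; -0.45 with scores). Per2 was 8.33 ± 1.61 and 11.3 ± 1.62 FPKM (0.43 ± 0.13; 0.25 ± 0.16 with scores), Tef 34.1 ± 8.31 and 46.0 ± 6.53 FPKM (0.45; 0.36 with scores) and Ciart 7.84 ± 3.37 and 9.60 ± 3.24 FPKM (0.31 ± 0.30). Spread within the vehicle group was thus larger than within the MaR1 group for Dbp and Arntl.

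Within the 5 hearts with low Myl7 the repressor median was 0.51 and the activator median -0.79. Within the 5 with high Myl7 they were 0.14 and -0.10, and Arntl alone was 0.01 there. The split was chosen after the data were seen, and the difference between the sets of hearts was not tested. Without RB030 the medians with scores were 0.15 for the repressors and -0.05 for the activators, the smallest of the 10 fits that leave out 1 animal. In the fit with scores this animal thus carried much of the activator value. In the fits without scores the activator median was -0.53 (without RB034) to -0.37 (without RB033). Against kidney cortex of the same animals the median of heart minus kidney response was -0.04 for the repressors and 0.14 for the activators, and 0 of the 17 tested genes had an unadjusted p under 0.05 for that difference (limma).

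**Figure D4:**
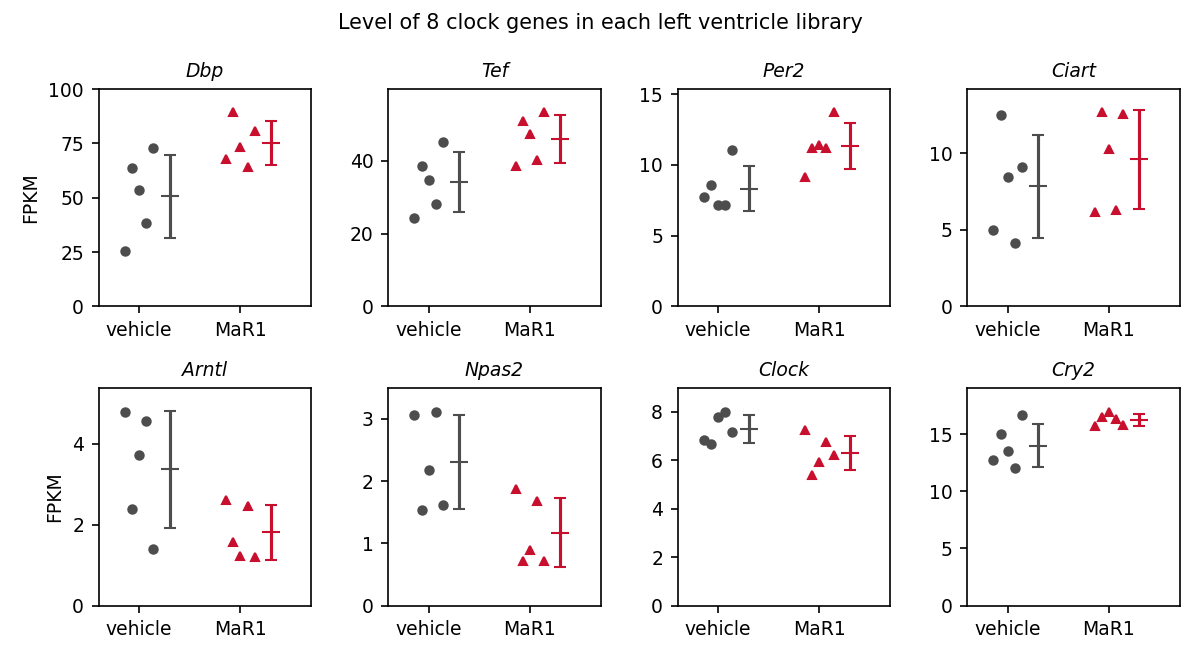
FPKM of 8 clock genes in each left ventricle library, grey circles vehicle and red triangles MaR1, with the mean and SD of each group (n = 5). Dbp, Tef, Per2 and Cry2 are higher and Arntl, Npas2 and Clock lower on average with MaR1, and the groups overlap in each of the 8 genes.

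Several lists changed sides when the scores were added, and single animals had much weight in them. For extracellular matrix and fibrosis genes, the collagens and their partners, 4 of 30 were higher with MaR1 without the scores (median log2 fold change -0.19) and 27 of 30 with them (0.24), with 0 genes at p under 0.05 in either. Without RB035 the median with scores was -0.24, and without RB030 it was 0.65, so the sign depends on RB035. Without RB033 the median without scores was 0.02. For fatty acid oxidation 15 of 20 genes were higher without (0.03) and 1 of 20 with the scores (-0.20), again with 0 genes at p under 0.05. For oxidative phosphorylation 23 of 46 were higher without (-0.000477) and 0 of 46 with the scores (-0.20). These 2 medians with scores were -0.02 and -0.05 without RB035, and without scores the first was -0.10 without RB033 and -0.02 under quantile scaling, and the second 0.11 without RB035. Mitochondrial ribosomal proteins went from 46 of 70 higher to 5 of 70, with 4 of those lower at p under 0.05, beside 3.02% of all genes tested.

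With the scores 50.4% of all genes tested were higher with MaR1 (median 0.00), 3.81% with p under 0.05. Among fibroblast markers 7 of 12 were higher without (median 0.03) and 12 of 12 with the scores (0.37), 3 with p under 0.05 (Tcf21, Pdgfra and Gsn). In TGF-beta and BMP signalling 16 of 26 were higher without (median 0.08, Acvrl1 with p under 0.05) and 23 of 26 with the scores (0.16, 8 with p under 0.05, among them Bmp4, Bmp2, Tgfb3 and Smad6). Bmp4, a ligand, read 3.39, 5.06, 3.95, 7.16 and 7.17 FPKM with vehicle and 11.2, 5.22, 5.05, 7.50 and 3.97 FPKM with MaR1. RB035 stood highest and the groups overlapped (0.25 ± 0.27; 0.71 ± 0.16 with scores). Nfatc1, a calcium-dependent factor of endocardium, had the smallest p of the fit with scores (0.26 ± 0.17 without; 0.59 ± 0.09 with). It read 3.66, 4.76, 4.24, 5.72 and 5.29 FPKM against 8.00, 4.70, 5.04, 7.05 and 4.47 FPKM, where RB035 and RB038, the MaR1 hearts with atrial transcripts, stood highest. Vwf, Pkhd1l1 and Bcr were likewise highest in RB035, at 79.8, 7.60 and 9.71 FPKM, and over all 10 hearts had p over 0.05 without the scores (-0.19, -0.10 and 0.26) and under 0.05 with them (0.58, 0.71 and 0.47). Sctr, Snrpn and Abra were lower there (-0.99, -0.43 and -0.53), with differences of -0.19, -0.11 and -0.18 without the scores.

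**Figure D5:**
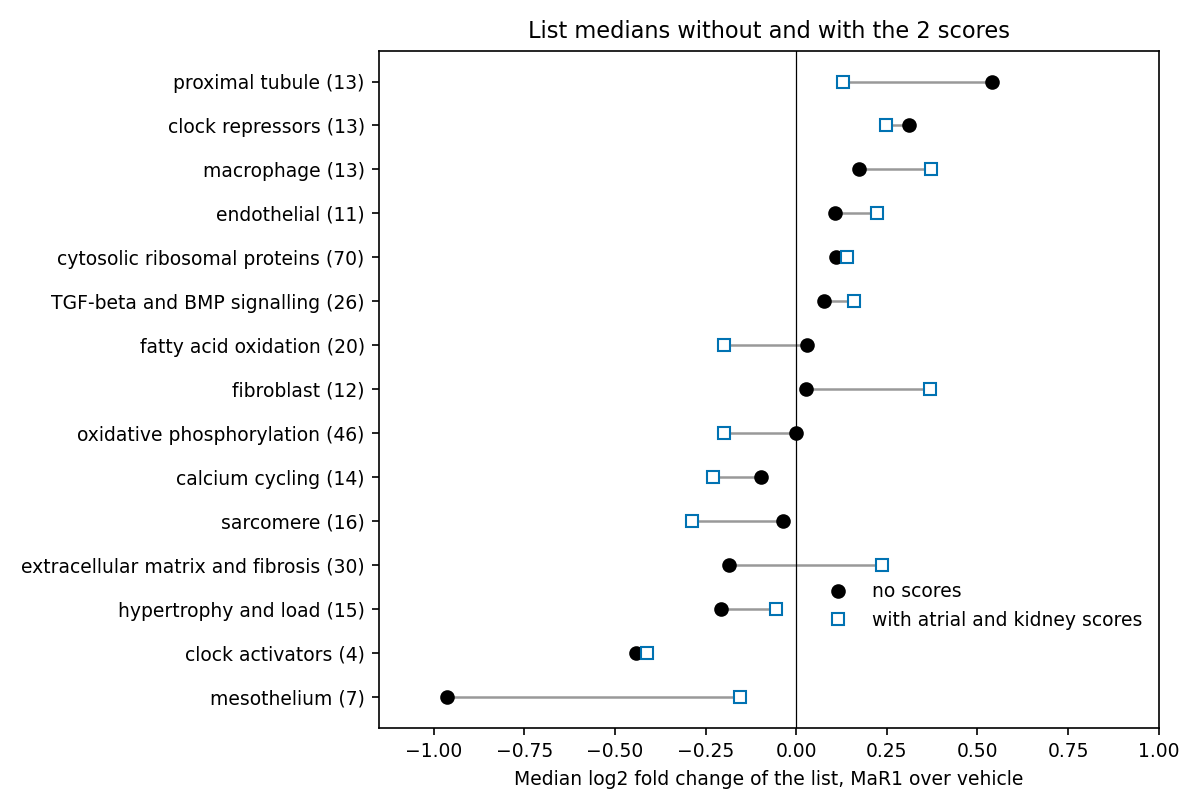
Median log2 fold change (MaR1 over vehicle) of 15 gene lists without scores (black circles) and with the atrial and kidney scores (open blue squares), with the number of tested genes in brackets. The proximal tubule and mesothelium medians shrink, the clock medians hardly move, and those of extracellular matrix and fatty acid oxidation lie on opposite sides of 0.

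Mesothelial markers, from the outer lining of the heart, were lower with MaR1 in 6 of 7 genes without the scores. Of these 2 had p under 0.05, beside 1.53% of all genes tested. The median was -0.96 without and -0.16 with the scores (0.21 with scores when RB035 was left out). Msln read 1.52, 3.86, 3.17, 17.5 and 18.3 FPKM with vehicle and 3.93, 0.0454, 0.0929, 8.98 and 0.0235 FPKM with MaR1, high in the same 2 MaR1 hearts that had atrial transcripts (-2.12 ± 0.94; -0.51 ± 0.55 with scores). Macrophage markers were higher in 12 of 13 (median 0.17) and in 13 of 13 with scores (0.37), with 0 at p under 0.05 in either fit. Their median was -0.09 in the 5 hearts with low Myl7 and 0.55 in the other 5, and with scores 0.16 without RB035 and 0.74 without RB030. Cd163 was 12.1 ± 3.28 and 16.2 ± 3.53 FPKM (0.42 ± 0.20). In the mast cell and neutrophil list Mcpt1l1, a mast cell protease of a multigene family whose reads may be shared, was 12.7 ± 2.33 and 9.26 ± 0.818 FPKM (-0.42; -0.36 ± 0.13 with scores), and Cpa3, another mast cell protease, 4.05 ± 0.845 and 3.40 ± 0.378 FPKM (log2 difference -0.21 ± 0.13). The groups overlapped for Mcpt1l1.

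In the fit without scores 4.60% of all genes tested had p under 0.05. Of 15 genes of hypertrophy and load 13 were lower with MaR1, with 0 at p under 0.05 and a median of -0.21 (-0.06 with scores). The natriuretic peptide gene Nppa read 3022, 2025, 429, 6698 and 3354 FPKM with vehicle and 4000.2, 647, 991, 2675 and 302 FPKM with MaR1 (-0.97 ± 0.81), and Nppb was 301 ± 106 and 247 ± 86.5 FPKM (log2 difference -0.29 ± 0.29). Nppa is also an atrial gene and was highest in RB033 and RB035. Of the myosin heavy chains, Myh6 was at 1843 ± 528 and 1778 ± 604 FPKM (log2 difference -0.07 ± 0.28) and Myh7 at 639.7 ± 171 and 541 ± 169 FPKM (log2 difference -0.27 ± 0.25). Of 16 sarcomere genes 14 were lower without (median -0.04) and 15 with the scores (-0.29), with 0 at p under 0.05. Corin, the protease that activates the natriuretic peptides, was 19.6 ± 4.23 and 14.3 ± 2.93 FPKM (-0.44 ± 0.17; -0.44 ± 0.23 with scores).

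MaR1 is a lipid mediator, and the genes of its receptors and of related enzymes were compared next. Lgr6 stood at 9.13 ± 0.973 FPKM in vehicle hearts and 9.67 ± 1.52 FPKM in MaR1 hearts, with a log2 difference of 0.07 ± 0.11 (95% interval -0.18 to 0.32). Rora lay at 1.91 to 2.92 and 1.84 to 2.45 FPKM (-0.12, interval -0.36 to 0.12), and Alox12 at 0.207 to 0.521 FPKM in all hearts, below the filter. Alox5, which starts leukotriene synthesis, was 4.35 ± 1.01 and 5.33 ± 1.16 FPKM (log2 difference 0.27 ± 0.18), and Alox15 2.71 ± 1.38 and 2.21 ± 1.39 FPKM (log2 difference -0.28 ± 0.45). Of 21 lipid mediator enzymes 14 were higher, and the 1 with p under 0.05, beside 4.60% of all genes tested, was Ephx1, the microsomal epoxide hydrolase, at 10.96 ± 3.23 and 15.04 ± 2.50 FPKM (0.48 ± 0.20; 0.67 ± 0.21 with scores). Ephx1 is among the 203 genes, but its p without scores was over 0.05 in at least 1 of the fits that leave out an animal. Mgst2, a membrane glutathione transferase that can form leukotriene C4, read 7.67, 7.43, 7.66, 6.42 and 7.26 FPKM against 9.44, 8.55, 9.79, 10.3 and 7.45 FPKM and is on the stricter list, with only RB039 inside the vehicle range (0.30; 0.45 ± 0.10 with scores). Aloxe3, a lipoxygenase known from skin, was 4.04 ± 0.772 and 5.88 ± 0.888 FPKM (0.50; 0.54 with scores), and was chosen after its values were seen. Rxra, a receptor for docosahexaenoic acid and partner of many nuclear receptors, was 18.2 ± 2.38 and 22.4 ± 2.13 FPKM (0.29 ± 0.10; 0.27 ± 0.13 with scores).

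Among genes of lipid storage and synthesis, the differences with p under 0.05 without the scores had larger p with them. Other genes had p under 0.05 only with the scores. In glycerolipid and phospholipid synthesis 2 of 22 were then lower, and in fatty acid synthesis 1 of 13 was higher and 1 lower. Over all genes tested the shares with the scores were 3.81% higher and 3.02% lower. Plin2, which coats lipid droplets, read 30.5, 32.3, 32.4, 29.6 and 29.3 FPKM with vehicle and 27.2, 26.4, 26.0, 29.1 and 24.1 FPKM with MaR1, with no overlap (-0.21 ± 0.07; -0.11 ± 0.07 with scores). G0s2, an inhibitor of the triglyceride lipase, was 19.1 ± 2.83 and 13.8 ± 4.61 FPKM (-0.49 ± 0.19; -0.10 ± 0.19 with scores), and RB035 at 21.2 FPKM was unlike the other MaR1 hearts. Hmgcs1, an early enzyme of cholesterol synthesis, was at 7.98 to 9.14 and 7.10 to 7.61 FPKM (-0.19 ± 0.06; -0.14 ± 0.08 with scores). In sphingolipid metabolism Sgms1, a sphingomyelin synthase, was higher (0.20 ± 0.07) and Acer3, a ceramidase, lower (-0.23 ± 0.08), both with p over 0.05 in the fit with scores. Of 18 cholesterol genes 13 were lower (median -0.03) without and 6 with the scores.

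Cytosolic ribosomal protein genes were slightly higher as a list. Of 70 tested 63 were higher, with a median log2 fold change of 0.11 (64 of 70 and 0.14 with scores). With p under 0.05, 8 were higher and 1 lower, beside 3.07% and 1.53% of all genes tested. The median over all genes was 0.01 and was -0.000392 and -0.000519 under median-of-ratios and quantile scaling, where the list's median without scores was 0.10 and 0.08. Rps2 read 446, 325, 329, 344 and 326 FPKM with vehicle and 447, 464, 442, 419 and 385 FPKM with MaR1, with RB030 alone inside the MaR1 range (0.29 ± 0.11; 0.24 ± 0.14 with scores). Rps27a was lower (-0.59) and its near-identical copy Rps27a-ps1 higher (0.79), but the sum of fragments of both was 334 to 433 per unit of library size (fragments scaled as in FPKM) in all 10 hearts, so the division of reads between them is uncertain. In translation control 15 of 19 genes were higher, with p under 0.05 for Fnip2, Eef2k, Eef2 and Rictor, and lower for Impact. Eef2k, the kinase that slows elongation by acting on Eef2, was 13.4 ± 0.621 and 15.9 ± 0.805 FPKM with no overlap (0.24 ± 0.06; 0.16 ± 0.07 with scores), and Eef2 itself 409 ± 20.2 and 466 ± 25.6 FPKM (0.19; 0.14 with scores).

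The kidney cortex of the same animals served as a second organ. The difference between the heart and the kidney responses gave 0 genes at an adjusted p under 0.05 (0%; smallest adjusted p = 0.541, limma over 20 libraries) and 586 at an unadjusted p under 0.05 (4.79%). Of the 124 genes of the stricter rule 60 had p under 0.05 for that difference, a share that the choice by heart values raises. Myrip differed between organs by 0.36 ± 0.15 (SE), Eya2 by 0.85 ± 0.27, Pigl by 0.63 ± 0.14, Icoslg by 0.39 ± 0.11 and Podxl by 0.59 ± 0.15. For Irx1, Prkd1, Bmyc and Abcb1b the difference between organs was 0.21 ± 0.55, -0.06 ± 0.13, 0.15 ± 0.19 and 0.38 ± 0.25, each with p over 0.05. The 2 groups of values share the heart libraries with the comparison above and are no second test of it.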

How the data were processed

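RNA was extracted with Trizol from snap-frozen left ventricle and kidney cortex of the same animals and sequenced after poly-A selection, per the labels' protocols. Per the submitters' processing notes the tools included fastp, HISAT2 2.0.5, StringTie 1.3.3b and featureCounts 1.5.0-p3. Neither build nor strandedness is stated in these sources, so reads of overlapping and antisense genes may not be told apart. The deposited table holds FPKM per gene, and the authors' gene lengths turn 100% of 371175 values above 0 into whole fragments within 0.01. No column lacked a sample (0 columns).

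From these values log2(FPKM + 0.5) was tested with limma 3.58.1 (trend) in R 4.3.3, with Benjamini-Hochberg adjustment over 12237 genes, without and with the 2 scores as covariates, after subtraction of kidney transcripts, and as heart minus kidney response over 20 libraries. Library sums were compared with exact permutation tests over 252 splits. The code was tested on simulated data. Chi-square tests of 20 library pairs within groups gave at least 10.2 per degree of freedom, so no pair looked like 1 library deposited again. Figures used matplotlib 3.10.9.

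Members and the 51 gene lists (965 of 1020 symbols in the file) were chosen with earlier results of these data known. Genes were named by rule: smallest p, the stricter rule, up to 2 per list and a set of cardiac, kidney and mediator genes. Irx2, Irx4, Mybphl, Kcnip2, Vwf, Bmp4, Ptprb, Adgrf5, Slc9a3r2, Podxl, Rasip1, Sema3g, Sema6a, Aqp1, Xirp1, Fgf12, Dsc2, Mat2a, Ehbp1, Miox, Hao2, Cltrn, Aloxe3, Arntl, Npas2, Eef2 and Rps27a were named after their values were seen. Each library is a separate animal. Alternatives changed the pseudocount, filter, scaling, weights, scores and animals included. Some genes that meet these rules are not reported here.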

Additional observations from a re-analysis of the deposited data

Results flagged for a closer look

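In 19 of 302 groups of 5 libraries (6.29%) 1 library lay far from the other 4, where chance gives about 1 in 20. RB035 accounts for several. Its Bmp10 was 8.61 FPKM (nearest MaR1 library 0.0677), its Bmp2 3.84 FPKM (1.80), its Pla2g4a 9.12 FPKM (3.93), its Adipoq 7.66 FPKM (0.679) and its Schwann cell and nerve sum 65.5 FPKM (34.4). Its Irx4 was low at 6.93 FPKM (9.91), and 1 FPKM of a 1 kb gene was worth 24.3 fragments there (20.8).

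RB039 was low in Aloxe3 at 4.33 FPKM (nearest 5.99), in Icoslg at 11.4 FPKM (13.8) and in Podxl at 37.7 FPKM (47.3), and high in Slc34a1 at 4.84 FPKM (2.05). RB036 was high in Slc7a13 at 5.35 FPKM (2.39) and low in Pigl at 1.11 FPKM (1.49).

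Among vehicle hearts RB030 was high in Nfil3 at 2.64 FPKM (nearest 1.99), in Pcyt2 at 34.7 FPKM (28.7) and in Rps2 at 446 FPKM (344). RB034 was high in the adipocyte gene Adipoq at 18.1 FPKM (2.81), RB033 in the distal nephron sum at 11.4 FPKM (9.38), and RB031 was low in the ficolin gene Fcnb at 0.803 FPKM (1.36).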

How the results depend on the processing

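Without scores, genes at an unadjusted p under 0.05 (563) numbered 973 with no filter, 359 with a mean of at least 5 FPKM, 1090 with library weights, 1019 without RB033 and RB034 and 855 in the 5 hearts with low Myl7 (chosen after seeing the data), and 397 to 958 with 1 animal left out (958 without RB035). With scores (835) they numbered 1472 with library weights, 422 with the kidney score only, 2535 with linear scores, 274 with the score of Kap, Miox and Slc7a13, 434 with the atrial class (chosen after seeing the data), and 478 (without RB035) to 1912 (without RB030), with 502 without RB037. The 203 genes became 330 with no filter, 125 with the higher filter, 423 with the atrial score only, 52 with the score of Kap, Miox and Slc7a13, and 116 (without RB038) to 309 (without RB033), with 128 without RB037. After subtraction 0 to 4 genes were called and 389 to 955 had p under 0.05, both highest without RB035. Heart minus kidney gave 373 (586) with the higher filter.

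With 1 animal left out, the MaR1 minus vehicle difference was -1151 to -316 FPKM for the atrial sum, 6.22 to 11.9 for the kidney sum, 31.4 to 47.1 for the proximal tubule sum, 44.8 to 76.2 for clock repressors and -4.46 to -3.15 for clock activators. Named genes with p under 0.05 without scores were followed here through fits without scores only. Those with p under 0.05 only with scores were followed through fits with scores. Of these values 2410 kept direction and side of the threshold and 306 kept direction but had p over 0.05. In 1 the sign changed: Arntl was 0.0084 in the 5 hearts with high Myl7. With the score of Kap, Miox and Slc7a13, 123 of the 124 genes of the stricter rule kept their direction and 28 had p under 0.05. The share of higher genes among the 563 was 66.8%, and 59.1% of such genes under median-of-ratios scaling. Voom on recovered fragments called 0 genes, with 550 (without scores) and 887 (with scores) at p under 0.05.

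Hearts and kidneys share animals. In 1 model of 20 libraries the heart comparison gave 632 genes, and 637 with animal as replicate block. The heart minus kidney response gave 670 with the replicate block. Deviations of the same animal correlated at -0.0170 to 0.139 between organs, and 1 heart correlated best with its own kidney.

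In the fits of all 10 hearts 0 genes passed the adjusted threshold.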
